A study of Homo sapiens with 30 samples.

Results

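Loss of RBPMS and gain of ANKRD10-2 were compared gene by gene in 5637 cells, an established human bladder carcinoma line. A gene entered the knockout program when both RBPMS knockouts, KO1 against WT1 and KO2 against WT2, moved it in the same direction at an adjusted p under 0.05 (edgeR quasi-likelihood test, Benjamini-Hochberg over all genes of the comparison). A program gene was called shared when ANKRD10-2 against Vector moved it the same way at that threshold. It was called knockout-only when ANKRD10-2 gave no call, and opposed when ANKRD10-2 moved it the other way. Of the 13605 genes tested in all 3 comparisons, 2850 formed the knockout program. Of these, 774 were shared (481 higher and 293 lower), 1881 were knockout-only (957 higher and 924 lower) and 195 were opposed (115 higher and 80 lower in the knockouts). The overlap cannot show that ANKRD10-2 carries the knockout change, and no call with ANKRD10-2 does not show that a gene did not change.

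RBPMS is an RNA-binding protein that binds pre-mRNA and mRNA and regulates alternative splicing. ANKRD10 encodes a protein with ankyrin repeats, a fold known for contacts between proteins, and its pre-mRNA is spliced into a longer form, ANKRD10-1, and a shorter form, ANKRD10-2. The study asked whether RBPMS restrains MYC target genes through this splicing choice. MYC pairs with MAX, binds DNA at the E-box CACGTG, and is known for driving genes of ribosome assembly, protein folding, nucleotide synthesis and metabolism.

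RNA-seq reads per gene were counted in 3 libraries per group. KO1 and KO2 (genotype RBPMS-KO, made with different guide RNAs) had the control groups WT1 and WT2 (genotype WT, which the study calls sgCtrl), and ANKRD10-2 (ANKRD10-2 overexpression) had Vector (Vector only). The choice of genes did not use siANKRD10-2 and its control siNC, siRNA transfections that served as a separate readout, nor ANKRD10-1 overexpression and siANKRD10-1. The study describes single-clone expansion of its knockout populations, so changes that belong to a clone cannot be told apart from loss of RBPMS. The labels name 5637 for all libraries, whereas the study's text places siANKRD10-2 and ANKRD10-1 in RBPMS-knockout cells. The labels hold 1 Vector and 1 siNC group, and the cell background of those tables could not be settled. No label says that the 3 libraries of a group came from separate cultures, so the p-values measure the spread between these libraries, which may be technical.

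RBPMS (ENSG00000157110, GRCh38 chromosome 8, 30384479 to 30572261) was lower in all 6 knockout libraries than in any control library. It stood at 844, 852 and 799.7 in KO1 and 2180.1, 2362 and 2240.2 in WT1 in normalized counts (log2 fold change -1.44 ± 0.07, adjusted p = 1.25e-07). It stood at 1253, 1152 and 1286 in KO2 and 2683, 2601 and 2573 in WT2 (log2 fold change -1.09 ± 0.06, adjusted p = 5.07e-08). The transcript was 2.72-fold and 2.13-fold lower and was still counted in each knockout library. Here and below, normalized counts are TMM-scaled to the mean library size of a comparison, n is 3 against 3, and the error after a log2 fold change is the standard error of the fit. In ANKRD10-2 against Vector, RBPMS counts were 189, 204 and 249 in ANKRD10-2 and 207, 214 and 188 in Vector, groups that overlapped (log2 fold change 0.08 ± 0.13, adjusted p = 0.717). As CPM (counts scaled to a common library total), RBPMS was 40.0 to 44.9 in the WT libraries and 14.0 to 20.7 in the knockouts, against 3.57 to 6.14 in the 18 libraries of the overexpression and siRNA tables. The tables were counted separately, and what sets that lower level was not tested.

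ANKRD10 (chromosome 13, 110878540 to 110915069) was counted as 1 gene, so its isoforms cannot be told apart here. Its summed count was 4853, 5045 and 4573 in KO1 and 10629, 10901 and 11142 in WT1 (log2 fold change -1.18 ± 0.05, adjusted p = 6.55e-08). It was 6904, 6563 and 6992 in KO2 and 11964, 11374 and 11346 in WT2 (log2 fold change -0.76 ± 0.04, adjusted p = 3.98e-08). Both knockouts therefore lowered the total. In the overexpression libraries the total was 8127, 7286 and 8010.3 in ANKRD10-2 and 5914, 5859 and 5904 in Vector (log2 fold change 0.41 ± 0.05, adjusted p = 8.3e-05), a gain of 1.33-fold, and after siANKRD10-2 it was 1453, 1496 and 1499.9 in siANKRD10-2 and 1780.5, 1682 and 1828 in siNC (log2 fold change -0.25 ± 0.06, adjusted p = 0.00121). By the rule RBPMS is a knockout-only gene and ANKRD10 an opposed gene, since its total went down in the knockouts and up with ANKRD10-2.

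Libraries held 44593108 to 69723937 counts in the knockout table, 31736779 to 47493499 in the overexpression table and 28511029 to 32784584 in the siRNA table. All 10 epithelial markers checked reached 1 CPM in each library of the 6 groups, and their sum ran from 3940 to 4770 CPM. Of 9 urothelial markers, 4 or 5 reached that level in a group. Single markers differed between the tables. FOXA1 ran from 50.7 to 73.7 CPM in the knockout table and from 3.08 to 6.2 in the overexpression table. GATA3 ran from 19.2 to 59.4 and from 6.41 to 9.44, and KRT17 from 209 to 331 and from 875 to 1100. PPARG overlapped, at 59.4 to 75.6 and 52.2 to 68.9. What sets these differences was not tested. The 6 immune markers summed to 0.71 to 2.4 CPM in the knockout table and 17.4 to 24.9 in the overexpression table, where CD68 made up nearly all of it. PTPRC, CD3E and LYZ stayed under 1 CPM.

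The knockout program went with ANKRD10-2 more often than other genes did. KO1 raised 21.4% and lowered 20.9% of all genes tested, and KO2 raised 23.8% and lowered 22.3%. Of the 1553 program genes higher in both knockouts (11.4% of genes tested), ANKRD10-2 raised 481, or 31.0%, where it raised 13.4% of all genes tested, and it lowered 7.41%, where it lowered 11.1% of all. Of the 1297 program genes lower in both knockouts (9.53%), ANKRD10-2 lowered 293, or 22.6%, against the same 11.1%, and raised 6.17%. Shared genes made up 3.54% (higher) and 2.15% (lower) of all genes tested. The knockout and overexpression libraries have none in common, so the ANKRD10-2 values are a separate measurement of genes chosen from the knockouts.

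The median log2 fold change with ANKRD10-2 was 0.106 over the program genes higher in the knockouts and -0.091 over those lower, against 0.002 over all genes tested. By library, the first median was 0.133, 0.101 and 0.106 in ANKRD10-2 and 0.005, -0.015 and 0.011 in Vector. The second was -0.116, -0.076 and -0.076 in ANKRD10-2 and -0.001, 0.012 and -0.009 in Vector. Neither pair of groups overlapped, and the shifts were small beside those in the knockouts, where the medians were 0.363 and 0.331 over the higher genes and -0.516 and -0.459 over the lower.

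**Figure D1:**
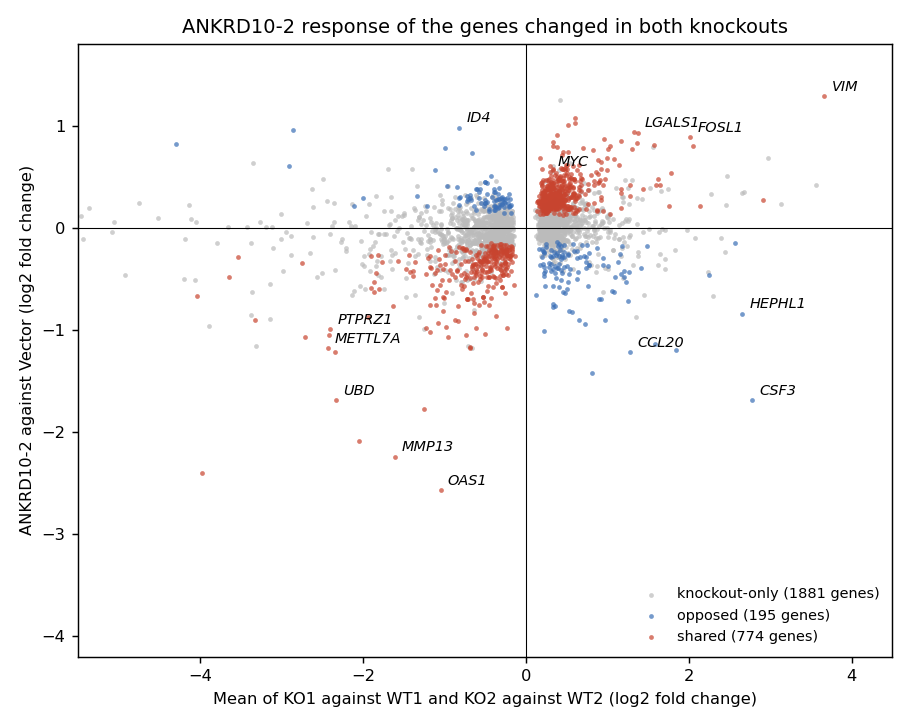
Each point is 1 of the program genes: the horizontal axis is the mean log2 fold change of KO1 and KO2, the vertical axis the log2 fold change of ANKRD10-2 against Vector, with 774 shared genes in red, 195 opposed in blue and 1881 knockout-only in grey; 11 genes lie outside the horizontal range. VIM sits at the upper right, OAS1, MMP13 and UBD at the lower left, and CSF3, CCL20 and HEPHL1 at the lower right, where the knockouts and ANKRD10-2 move genes in opposite directions.

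Signs alone gave a like picture. Of all 13605 genes, 64.8% had the same sign in both knockouts, and 40.5% had the same sign in all 3 comparisons. ANKRD10-2 kept the knockouts' sign in 70.2% of program genes higher and 65.3% of those lower. Among knockout-only genes the shares were 63.6% and 60.0%, near the 62.5% of all 8815 genes with 1 sign in both knockouts. Across the 13605 genes, the mean of the knockouts and ANKRD10-2 gave a Pearson correlation of 0.17 and a Spearman correlation of 0.24, beside 0.30 and 0.37 between KO1 and KO2, a description over genes that share libraries and counting.

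Agreement between the knockouts went with a larger ANKRD10-2 share. Genes that rose in KO1 alone were higher with ANKRD10-2 in 18.9% and genes that rose in KO2 alone in 20.8%, below the 31.0% of those that rose in both. The 273 genes higher in KO1 and lower in KO2 were higher with ANKRD10-2 in 18.3% and lower in 14.3%. The 403 genes of the reverse pattern were higher in 16.9% and lower in 13.2%. Genes called in neither knockout were higher in 9.36% and lower in 8.30%.

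Most genes with large changes in both knockouts lay outside the shared set. Of 68 genes at least 2-fold higher in both knockouts, 15 (22.1%) were shared and 7 (10.3%) opposed. Of 174 at least 2-fold lower in both, 32 (18.4%) were shared and 3 (1.72%) opposed. ANKRD10-2 raised 13.4% and lowered 11.1% of all genes tested. The strongly changed genes had low counts in the overexpression table, with medians of 112 (higher) and 62.4 (lower) against 663 over all genes tested. In the bottom quartile of counts there, ANKRD10-2 raised only 2.23% and lowered 7.47% of all genes. The part of level in these shares was not tested. Median log2 fold changes of the shared higher genes were 0.37 in KO1, 0.34 in KO2 and 0.30 with ANKRD10-2, and of the shared lower genes -0.50, -0.49 and -0.36. At least 2-fold in all 3 comparisons were 1 shared gene higher and 11 lower. Seen from the other side, the shared genes were 26.3% of the 1829 genes ANKRD10-2 raised and 19.4% of the 1508 it lowered.

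The shared genes with the largest changes upward were VIM, TRIML2, LGALS1, FOSL1, RPL22L1, SYT14, DUSP5, NEFL, TRIM36 and ODC1, ranked by the smallest of the 3 log2 fold changes among genes with at least 50 normalized counts on average and no overlap between groups in any comparison. VIM, the mesenchymal intermediate filament vimentin (chromosome 10, 17228259 to 17237593), was the 1 shared gene at least 2-fold higher in all 3. Its counts were 4272, 3580.2 and 4004 in KO1 and 242, 236 and 274 in WT1 (log2 fold change 3.98 ± 0.09, adjusted p = 2.81e-09). They were 2714, 2887 and 2743 in KO2 and 238, 323 and 263 in WT2 (log2 fold change 3.35 ± 0.10, adjusted p = 1.86e-10). They were 2824, 2542 and 2489.5 in ANKRD10-2 and 1051, 1067 and 1098 in Vector (log2 fold change 1.29 ± 0.06, adjusted p = 5.24e-09). The knockout gain was 15.7-fold and 10.2-fold, and the ANKRD10-2 gain 2.44-fold. An antisense gene overlaps VIM, and the strand setting of the counting is not given in the sources used here, so reads of that partner may be included.

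FOSL1, an AP-1 transcription factor subunit, stood at 3028, 2399 and 3091 in KO1 and 638, 684 and 607 in WT1 (log2 fold change 2.15 ± 0.10, adjusted p = 1.13e-07). It stood at 2052, 2226 and 3152 in KO2 and 702, 599 and 718 in WT2 (log2 fold change 1.88 ± 0.14, adjusted p = 6.88e-07). With ANKRD10-2 it stood at 6579.7, 6159 and 6387 in ANKRD10-2 and 3523, 3402 and 3404 in Vector (log2 fold change 0.89 ± 0.05, adjusted p = 1.69e-08), clear of the Vector libraries. LGALS1, which encodes the secreted lectin galectin-1, had counts of 2105, 1662 and 2259 in KO1 and 760.3, 821 and 909.5 in WT1 (log2 fold change 1.27 ± 0.11, adjusted p = 1.15e-05). Its counts were 2329, 2703 and 2605 in KO2 and 873, 870.4 and 1016 in WT2 (log2 fold change 1.47 ± 0.08, adjusted p = 4.85e-08). With ANKRD10-2 they were 464, 372 and 421 in ANKRD10-2 and 204, 218 and 237 in Vector (log2 fold change 0.93 ± 0.11, adjusted p = 4.73e-05), a smaller step than in either knockout.

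ODC1, the rate-limiting enzyme of polyamine synthesis and a textbook MYC target, rose by a near-equal step in the 3 comparisons. Its counts were 9277, 9394 and 9575 in KO1 and 5870.1, 5829.7 and 5983 in WT1 (log2 fold change 0.68 ± 0.04, adjusted p = 1.23e-06). They were 10511, 11109.9 and 11029 in KO2 and 6879, 6529 and 6514 in WT2 (log2 fold change 0.71 ± 0.04, adjusted p = 6.7e-08). With ANKRD10-2 they were 1669.6, 1677 and 1499 in ANKRD10-2 and 969.9, 882 and 959.7 in Vector (log2 fold change 0.78 ± 0.07, adjusted p = 2.99e-06). Of the other leading genes, the ribosomal protein paralog RPL22L1 gave log2 fold changes of 0.93 ± 0.11, 1.41 ± 0.08 and 0.85 ± 0.08 in KO1, KO2 and ANKRD10-2. DUSP5, a phosphatase of ERK, gave 0.99 ± 0.14, 1.06 ± 0.12 and 0.80 ± 0.11. NEFL, the light neurofilament chain, gave 1.44 ± 0.23, 1.17 ± 0.24 and 0.77 ± 0.10, and TRIM36, a ubiquitin ligase, 1.07 ± 0.23, 0.91 ± 0.23 and 0.68 ± 0.11. RPL22L1 may share reads with close copies in the genome.

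TRIML2 and SYT14 had low counts in the knockout table. TRIML2 stood at 87.6, 91.9 and 178 in KO1 and 47.3, 58.1 and 52.2 in WT1 (log2 fold change 1.18 ± 0.32, adjusted p = 0.0152), and 1 KO1 library lay far above the others. Its KO1 call was lost without KO1 replicate 3 (adjusted p = 0.0785) or WT1 replicate 1 (adjusted p = 0.0541). In KO2 it gave 1.48 ± 0.27 and with ANKRD10-2 0.94 ± 0.07. SYT14, a synaptotagmin, stood at 124, 65.1 and 99.2 in KO1 and 25.8, 56.0 and 35.7 in WT1 (log2 fold change 1.30 ± 0.37, adjusted p = 0.0174) and at 81.0, 56.5 and 78.4 in ANKRD10-2 and 47.3, 48.6 and 29.5 in Vector (log2 fold change 0.81 ± 0.25, adjusted p = 0.0338), with 1.85 ± 0.35 in KO2. Leaving out KO1 replicate 1, WT1 replicate 1 or WT1 replicate 3 gave an adjusted p for SYT14 of 0.0814, 0.0632 or 0.0575 in KO1. Leaving out any of ANKRD10-2 replicates 1 and 3 or Vector replicates 1, 2 and 3 gave 0.0508 to 0.122 with ANKRD10-2, so SYT14 sits at the edge of the shared set.

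MYC (chromosome 8, 127735434 to 127741434) was itself a shared gene. Its counts were 10285, 10104 and 10469.8 in KO1 and 8102, 7454 and 7480.1 in WT1 (log2 fold change 0.42 ± 0.05, adjusted p = 7.32e-05). They were 9344, 9428 and 10475 in KO2 and 8710.0, 9235 and 8145 in WT2 (log2 fold change 0.17 ± 0.05, adjusted p = 0.032), where the highest control library lay close under the lowest knockout library. With ANKRD10-2 they were 3198, 2859 and 2824 in ANKRD10-2 and 2063, 1946 and 2046 in Vector (log2 fold change 0.55 ± 0.06, adjusted p = 2.16e-05). The KO2 call was lost without KO2 replicate 3 (adjusted p = 0.141), without WT2 replicate 1 (adjusted p = 0.0785) and without WT2 replicate 3 (adjusted p = 0.135). Its partner MAX gave 0.41 ± 0.07 in KO1 (adjusted p = 0.000708), 0.10 ± 0.06 in KO2 (adjusted p = 0.179) and 0.13 ± 0.06 with ANKRD10-2 (adjusted p = 0.131), and so was outside the program. Of the 12 genes tested of the MYC, MAX and MXD network, MYC and MLX were shared and MXD3, a MYC antagonist, was knockout-only and lower.

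MYC target genes were well represented among the shared genes. Of 195 tested genes of the first hallmark list of MYC targets, 57 were shared and higher, 34 were knockout-only and higher, 1 was opposed and 2 were knockout-only and lower. ANKRD10-2 raised 99 of the 195 and lowered 3, with a median log2 fold change of 0.17. Of 58 genes of the second list, 18 were shared and higher and 18 knockout-only and higher, and ANKRD10-2 raised 21 and lowered 0. At the same threshold, 3.54% of all genes tested were shared and higher. Of the 13605 genes, 957 were knockout-only and higher and 924 knockout-only and lower. The opposed genes were 115 higher and 80 lower in the knockouts. ANKRD10-2 raised 13.4% and lowered 11.1% of all genes. These backgrounds apply to each gene list below as well. They take no account of expression level. ANKRD10-2 raised 28.9% of all genes in the top quartile of counts in the overexpression table and 2.23% in the bottom quartile. The part of level in the list counts was not tested. A set of 34 MYC targets held 24 shared and 6 knockout-only genes. It was picked by the study on these samples and is no independent evidence of a direction.

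The study followed some targets by PCR as well. Of these 7 genes, 5 were shared. The study used this PCR to check differences seen in its knockout RNA-seq, so these genes are no independent evidence of a direction. C1QBP, a mitochondrial matrix protein, stood at 6473, 6621 and 6886 in KO1 and 3849, 3714 and 3849 in WT1 (log2 fold change 0.81 ± 0.05, adjusted p = 6.66e-07). It stood at 5706, 5516 and 6042 in KO2 and 3973, 4111 and 4017 in WT2 (log2 fold change 0.51 ± 0.05, adjusted p = 3.3e-06). Under ANKRD10-2 its level was 2325, 2433 and 2518 in ANKRD10-2 and 1602, 1691 and 1987 in Vector (log2 fold change 0.46 ± 0.07, adjusted p = 0.000643), and in none of the 3 comparisons did the groups overlap. The nucleolar helicase DDX21 gave log2 fold changes of 0.79 ± 0.06, 0.66 ± 0.04 and 0.33 ± 0.05 in KO1, KO2 and ANKRD10-2. The ribosome biogenesis genes RSL1D1 and WDR43 gave 0.61 ± 0.05, 0.26 ± 0.04 and 0.46 ± 0.05, and 0.67 ± 0.06, 0.49 ± 0.04 and 0.33 ± 0.06. PGK1, a glycolytic kinase, gave 0.73 ± 0.05 in KO1 but 0.09 ± 0.03 in KO2 (adjusted p = 0.0433) and 0.14 ± 0.04 with ANKRD10-2 (adjusted p = 0.0281). Its KO2 call was lost without KO2 replicates 2 or 3 or WT2 replicates 1 or 2 (adjusted p = 0.107 to 0.156), and its ANKRD10-2 call without ANKRD10-2 replicate 3 or any Vector library (adjusted p = 0.0613 to 0.0931). HK2, the first enzyme of glycolysis, was knockout-only, at 0.82 ± 0.06 and 0.72 ± 0.06 in the knockouts and 0.11 ± 0.05 with ANKRD10-2 (adjusted p = 0.111). PRMT3, an arginine methyltransferase, was outside the program, at 0.68 ± 0.08 in KO1 and 0.18 ± 0.07 in KO2 (adjusted p = 0.0543).

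Promoter windows of 300 bases, 250 before to 50 after the annotated gene start, were read from RefSeq (GRCh38.p14) and searched for the E-box CACGTG, which reads the same on both strands. It was found in 36 of 283 shared higher genes with a window (12.7%) and in 86 of 587 knockout-only higher genes (14.7%). It was found in 12 of 151 shared lower genes (7.95%) and 34 of 516 knockout-only lower genes (6.59%), against 783 of 7592 tested genes (10.3%) and 7.28% of 22114 RefSeq promoters. Among opposed genes it was found in 5 of 69 higher in the knockouts (7.25%) and 3 of 43 lower (6.98%). These shares were not tested against each other. The motif CCAAT, searched on both strands for comparison, was at 40.3% of shared higher, 38.0% of knockout-only higher and 37.8% of tested genes. The windows below, chosen after values were seen, show 30 bases around the E-box, in capitals, for shared genes of the MYC target, ribosome, mitosis and leading sets; a match describes the letters and is not a measured binding site.
SYT14, chr1:209938027-209938056, + strand: gcggggtggcgtCACGTGccagcggcggcc
MRPL37, chr1:54199985-54200014, + strand: tgcgcttcacctCACGTGaggattttccag
HSPE1, chr2:197500345-197500374, + strand: gggtgattttttCACGTGtcgccagggccg
MLX, chr17:42567038-42567067, + strand: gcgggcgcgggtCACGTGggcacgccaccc
UTP18, chr17:51260445-51260474, + strand: gggagtgctggtCACGTGgcaagaggctgc
RAN, chr12:130871952-130871981, + strand: gcacgcgcgggcCACGTGggcgggcgccgc
CENPE, chr4:103198456-103198485, - strand: cgcgctgctccgCACGTGgaatggcccatg
HSPE1 encodes the co-chaperonin of HSPD1, UTP18 a nucleolar processome subunit, RAN the nuclear transport GTPase, MRPL37 a mitochondrial ribosomal protein and MLX a MAX-like protein. They were higher in all 3 comparisons, with RAN at 0.30, 0.15 and 0.31 and HSPE1 at 0.43, 0.31 and 0.26 (log2, KO1, KO2 and ANKRD10-2). CENPE, a kinetochore motor, carried the same letters and was lower in all 3, at -0.31, -0.30 and -0.23.

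Most of the cytosolic and mitochondrial protein folding genes were shared. Of 30 chaperonin and heat shock genes tested, 19 were shared and higher and 1, CCT3, was knockout-only. ANKRD10-2 raised 27 of the 30 and lowered 0, with a median log2 fold change of 0.45, above the medians of 0.30 and 0.33 in KO1 and KO2. The shared members included the chaperonin subunits TCP1, CCT2, CCT4, CCT5, CCT6A, CCT7 and CCT8, the mitochondrial pair HSPD1 and HSPE1, and the HSP90 genes HSP90AA1 and HSP90AB1. TCP1 stood at 11944, 10926 and 10887 in ANKRD10-2 and 7898, 6502 and 8042 in Vector (log2 fold change 0.59 ± 0.07, adjusted p = 6.66e-05) and gave 0.39 ± 0.05 and 0.46 ± 0.03 in the knockouts. HSPD1 gave 0.51 ± 0.05, 0.44 ± 0.03 and 0.59 ± 0.05, HSP90AB1 0.47 ± 0.04, 0.58 ± 0.02 and 0.48 ± 0.04, and the HSP90 co-chaperone FKBP4 0.45 ± 0.06, 0.50 ± 0.04 and 0.57 ± 0.05. HSPD1 and HSP90AB1 have close copies in the genome, and how reads were split between copies is not given in the sources used here.

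Stress genes of the endoplasmic reticulum, chaperones among them, followed. Of 23 genes tested, 12 were shared and higher and 3, ERN1, EDEM1 and XBP1, were knockout-only. HSPA5, the chaperone BiP, stood at 256457, 237448 and 228849 in ANKRD10-2 and 129876, 124820.5 and 130446 in Vector (log2 fold change 0.91 ± 0.05, adjusted p = 2.06e-08), a 1.88-fold gain beside 1.31-fold and 1.3-fold in the knockouts. HSP90B1, its HSP90 relative, gave 0.45 ± 0.05, 0.49 ± 0.03 and 0.52 ± 0.04.

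Ribosome assembly and the proteasome were divided between the shared and the knockout-only set. Of 99 nucleolar assembly genes, 83 rose in KO1 and 80 in KO2, and ANKRD10-2 raised 41 and lowered 3. Among them 30 were shared and higher, 38 knockout-only and higher and 2 opposed. NOP2, an rRNA methyltransferase, gave 0.56 ± 0.07, 0.55 ± 0.06 and 0.41 ± 0.06, PNO1, an assembly factor of the small subunit, 0.77 ± 0.07, 0.57 ± 0.06 and 0.42 ± 0.08, and LYAR, a nucleolar regulator, 0.69 ± 0.08, 0.48 ± 0.07 and 0.48 ± 0.05. Of 32 proteasome subunits, 28 rose in KO1 and 30 in KO2, and 12 were shared and 14 knockout-only. PSMD11 gave 0.35 ± 0.05, 0.52 ± 0.03 and 0.29 ± 0.05, and PSMD7 0.29 ± 0.05, 0.32 ± 0.04 and 0.39 ± 0.06. Of 78 mitochondrial ribosomal proteins, 10 were shared, 19 knockout-only and 1 opposed.

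Metabolic genes were split as well. Of 31 nucleotide and polyamine synthesis genes, 10 were shared and higher and 7 knockout-only and higher. NME1, a nucleoside diphosphate kinase, stood at 2755, 2634 and 2549.5 in ANKRD10-2 and 1730.5, 1684 and 1774 in Vector (log2 fold change 0.61 ± 0.05, adjusted p = 3.22e-06) and gave 0.69 ± 0.05 and 0.45 ± 0.04 in the knockouts. Of 38 glycolysis and hypoxia genes, 8 were shared, 10 knockout-only and 1, ENO2, was lower in the knockouts and higher with ANKRD10-2. Of 32 cholesterol synthesis genes, 0 were shared and 3 were in the program, where 3.54% of all genes were shared and higher and 2.15% shared and lower.

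Of 49 mesenchymal genes tested, 9 were shared and higher, 5 knockout-only and higher, 3 knockout-only and lower and 1, MMP14, opposed. Of all 13605 genes tested, 481 were shared and higher, 957 knockout-only and higher and 924 knockout-only and lower. Besides VIM, the lysyl oxidase LOXL2 gave 1.26 ± 0.11, 1.61 ± 0.05 and 0.38 ± 0.05, and the matrix protein TGFBI 0.92 ± 0.06, 0.93 ± 0.03 and 0.27 ± 0.05. COL6A2, a collagen VI chain, gave 3.56 ± 0.32, 2.25 ± 0.36 and 0.27 ± 0.09. Its ANKRD10-2 call was lost without ANKRD10-2 replicates 1 or 3 or Vector replicates 1 or 2 (adjusted p = 0.0947 to 0.159). CDH1, which encodes E-cadherin, was outside the program, at 0.14 ± 0.04 in KO1 (adjusted p = 0.0276), -0.00 ± 0.03 in KO2 (adjusted p = 0.933) and 0.06 ± 0.05 with ANKRD10-2 (adjusted p = 0.461). Its KO1 call was lost without KO1 replicates 1 or 3 or any WT1 library (adjusted p = 0.0572 to 0.102). CDH2, which encodes N-cadherin, went in opposite directions in the knockouts, -0.94 ± 0.06 in KO1 and 1.46 ± 0.04 in KO2, and gave -0.07 ± 0.06 with ANKRD10-2 (adjusted p = 0.454). The mesenchymal list therefore moved in part, with a median log2 fold change of 0.01 in KO1, 0.53 in KO2 and -0.01 with ANKRD10-2.

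The shared genes with the largest changes downward were UBD, CYP1B1-AS1, METTL7A, CA8, MMP10, OAS1, PGLYRP4, MMP13, PTPRZ1 and MPPED2, by the same ranking and the same minimum of counts. MMP13, a collagenase (chromosome 11, 102942995 to 102955734), stood at 906, 866 and 891 in KO1 and 3677, 4064 and 4563 in WT1 (log2 fold change -2.21 ± 0.08, adjusted p = 1.88e-08). It stood at 2557, 2382 and 2633 in KO2 and 4798, 4987 and 5576 in WT2 (log2 fold change -1.02 ± 0.06, adjusted p = 1.38e-07). With ANKRD10-2 it stood at 217, 192 and 194 in ANKRD10-2 and 991, 928 and 939 in Vector (log2 fold change -2.24 ± 0.09, adjusted p = 2.9e-10), a 4.73-fold drop beside 4.62-fold in KO1 and 2.03-fold in KO2. The neighbouring metalloproteinase MMP10 gave -2.13 ± 0.08, -2.72 ± 0.08 and -1.05 ± 0.11.

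UBD, a ubiquitin-like modifier induced by cytokines, had low and scattered counts in the knockout table, 10.1, 39.6 and 51.7 in KO1 and 238, 60.2 and 294 in WT1 (log2 fold change -2.57 ± 0.61, adjusted p = 0.00696). It had 71.4, 8.48 and 66.0 in KO2 and 209, 242 and 184 in WT2 (log2 fold change -2.10 ± 0.48, adjusted p = 0.00439). With ANKRD10-2 it had 56.1, 59.0 and 61.0 in ANKRD10-2 and 176, 201 and 193 in Vector (log2 fold change -1.69 ± 0.15, adjusted p = 2.87e-06), groups far apart. OAS1, an interferon-induced sensor of double-stranded RNA, stood at 312, 250.1 and 252 in KO1 and 616, 529 and 584 in WT1 (log2 fold change -1.08 ± 0.14, adjusted p = 0.000126). It gave -1.02 ± 0.12 in KO2 and, with ANKRD10-2, stood at 341, 343 and 361 in ANKRD10-2 and 2069, 2106 and 2024 in Vector (log2 fold change -2.57 ± 0.07, adjusted p = 6.18e-12), a 5.93-fold drop beside 2.12-fold and 2.03-fold in the knockouts.

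MPPED2, a metallophosphoesterase, stood at 831, 799 and 854 in ANKRD10-2 and 1619, 1625 and 1664 in Vector (log2 fold change -0.98 ± 0.06, adjusted p = 7.95e-08) and gave -1.41 ± 0.05 and -1.04 ± 0.03 in the knockouts. PTPRZ1, a receptor tyrosine phosphatase, gave -2.73 ± 0.10, -2.08 ± 0.07 and -0.99 ± 0.11, and METTL7A, a lipid droplet methyltransferase, -2.11 ± 0.08, -2.76 ± 0.08 and -1.18 ± 0.26. CA8, a carbonic anhydrase-related protein, gave -1.56 ± 0.18, -3.88 ± 0.18 and -1.07 ± 0.17. PGLYRP4, a peptidoglycan recognition protein, gave -1.28 ± 0.32, -1.08 ± 0.29 and -1.02 ± 0.22, and its KO1 adjusted p was 0.0502 without WT1 replicate 1. The antisense RNA CYP1B1-AS1 gave -1.29 ± 0.33, -3.41 ± 0.43 and -1.22 ± 0.15, and its reads cannot be told apart from those of its partner without the strand setting. KRT13, a keratin of stratified and urothelial epithelium, gave -2.65 ± 0.07, -4.64 ± 0.09 and -0.48 ± 0.11.

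Interferon genes moved differently in the 3 comparisons. ANKRD10-2 lowered 48 of 51 tested and raised 0, with a median log2 fold change of -1.27, where it lowered 11.1% of all genes tested. KO1 raised 26 and lowered 5, and KO2 raised 7 and lowered 18. So 4 were shared and lower (2.15% of all genes tested), 3 opposed (115 of all 13605, higher in the knockouts) and 1 knockout-only. The shared ones were OAS1, the growth suppressors SAMD9 (-1.07 ± 0.08, -0.60 ± 0.05 and -0.91 ± 0.05) and SAMD9L (-0.71 ± 0.09, -0.67 ± 0.07 and -1.18 ± 0.07), and the signal transducer STAT2 (-0.69 ± 0.08, -0.17 ± 0.05 and -0.69 ± 0.07). The STAT2 call in KO2 was lost without KO2 replicates 2 or 3 or WT2 replicate 3 (adjusted p = 0.0574 to 0.115). The opposed ones were HLA-C, the peptide transporter TAP1 and LGALS3BP, the last at 0.62 ± 0.06, 0.18 ± 0.04 and -0.58 ± 0.07.

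The opposed genes higher in the knockouts were led by the secreted inflammatory proteins CSF3 and CCL20. Of 41 tested NF-kB target and chemokine genes, 8 were higher in both knockouts and lower with ANKRD10-2, 7 were knockout-only and higher, and 0 were shared and higher. Over all 13605 genes tested these counts were 115, 957 and 481. Of the 41 genes, ANKRD10-2 lowered 23 and raised 0, where it lowered 11.1% of all genes tested. By contrast, KO1 raised 16 and lowered 13 and KO2 raised 27 and lowered 6. CSF3, the granulocyte growth factor G-CSF (chromosome 17, 40015361 to 40017813), stood at 1849.6, 1549 and 2558 in KO1 and 292, 281 and 290.2 in WT1 (log2 fold change 2.79 ± 0.16, adjusted p = 5.29e-07). It stood at 2155, 2065 and 2598 in KO2 and 277, 336 and 387 in WT2 (log2 fold change 2.77 ± 0.12, adjusted p = 8.07e-09). With ANKRD10-2 it stood at 49.9, 43.6 and 51.3 in ANKRD10-2 and 168, 172 and 130.3 in Vector (log2 fold change -1.69 ± 0.18, adjusted p = 1.85e-05), so the knockouts raised it 6.9-fold and 6.81-fold and ANKRD10-2 lowered it 3.22-fold. CCL20, a chemokine, stood at 1498, 1694 and 2081 in KO1 and 537, 613 and 584 in WT1 (log2 fold change 1.60 ± 0.12, adjusted p = 2.92e-06) and gave 0.96 ± 0.13 in KO2. With ANKRD10-2 it stood at 151, 162 and 186 in ANKRD10-2 and 382, 370.0 and 411 in Vector (log2 fold change -1.22 ± 0.11, adjusted p = 4.16e-06).

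The other leading opposed genes higher in the knockouts were HEPHL1, a copper-dependent ferroxidase, RCSD1 and TLR4, the receptor for bacterial endotoxin. HEPHL1 stood at 9104, 8693 and 8513 in KO2 and 400.1, 411 and 387 in WT2 (log2 fold change 4.46 ± 0.05, adjusted p = 2.16e-13) and gave 0.85 ± 0.08 in KO1, so its size differed widely between the knockouts. In the overexpression table it had 3311, 3493 and 3412 in ANKRD10-2 and 6004, 5974 and 6309 in Vector (log2 fold change -0.84 ± 0.05, adjusted p = 3.35e-08). RCSD1 gave 0.91 ± 0.18, 1.03 ± 0.20 and -0.90 ± 0.19, and TLR4 1.19 ± 0.11, 1.31 ± 0.08 and -0.72 ± 0.17. On the other side, ID4, an inhibitor of helix-loop-helix transcription factors, was lower in both knockouts and higher with ANKRD10-2. It stood at 175, 205 and 146 in KO1 and 329, 224 and 343 in WT1 (log2 fold change -0.77 ± 0.21, adjusted p = 0.0144). In the overexpression table it stood at 202, 168 and 167 in ANKRD10-2 and 80.1, 100.5 and 91.8 in Vector (log2 fold change 0.98 ± 0.15, adjusted p = 0.000451) and gave -0.88 ± 0.15 in KO2. The KO1 call for ID4 was lost without KO1 replicate 3 (adjusted p = 0.0549), WT1 replicate 1 (adjusted p = 0.0615) or WT1 replicate 3 (adjusted p = 0.0669).

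The remaining genes of that kind rested on weaker calls. CRIP2 gave -1.01 ± 0.26, -0.98 ± 0.32 and 0.78 ± 0.10, and its KO2 call was lost without KO2 replicates 2 or 3 or WT2 replicates 2 or 3 (adjusted p = 0.0893 to 0.108) and its KO1 call without WT1 replicate 1 (adjusted p = 0.0541). The growth factor gene BMP4 gave -1.57 ± 0.14, -0.66 ± 0.12 and 0.57 ± 0.16, and its ANKRD10-2 call was lost without ANKRD10-2 replicates 1 or 3 or Vector replicates 1 or 2 (adjusted p = 0.054 to 0.0988). The endocytic receptor LRP2 gave -0.90 ± 0.20, -4.93 ± 0.28 and 0.61 ± 0.19, with an ANKRD10-2 call lost without any 1 of the 6 libraries (adjusted p = 0.0707 to 0.0949). The transcription factor PAX9 gave -0.45 ± 0.12, -0.57 ± 0.13 and 0.45 ± 0.13. Its ANKRD10-2 call was lost without ANKRD10-2 replicates 1 or 3 or Vector replicates 2 or 3 (adjusted p = 0.066 to 0.0921) and its KO1 call without WT1 replicate 2 (adjusted p = 0.0513).

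Knockout-only genes included many of the largest changes of the program. CSF2, which encodes the growth factor GM-CSF, stood at 228, 208 and 209 in KO2 and 39.7, 22.9 and 40.3 in WT2 (log2 fold change 2.63 ± 0.26, adjusted p = 8.2e-06) and gave 2.16 ± 0.41 in KO1. ANKRD10-2 and Vector libraries overlapped in CSF2 (log2 fold change -0.10 ± 0.15, adjusted p = 0.709). CLMP, a cell adhesion molecule, stood at 1712, 1736 and 1580.1 in KO1 and 613, 516 and 512 in WT1 (log2 fold change 1.62 ± 0.09, adjusted p = 4.73e-07) and gave 1.67 ± 0.07 in KO2 and -0.26 ± 0.09 with ANKRD10-2 (adjusted p = 0.0672). SPOCD1 gave 1.84 ± 0.22, 1.81 ± 0.30 and -0.22 ± 0.12, the globin CYGB 2.81 ± 0.41, 1.65 ± 0.27 and -0.43 ± 0.17, and ASPHD1 1.68 ± 0.34, 1.65 ± 0.25 and -0.01 ± 0.07. None of the 5 was called with ANKRD10-2.

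Of the knockout-only genes that were lower, HS6ST2, a heparan sulfate sulfotransferase, stood at 14.3, 15.3 and 15.1 in KO1 and 486, 523 and 464 in WT1 (log2 fold change -5.03 ± 0.19, adjusted p = 2.39e-08) and gave -2.57 ± 0.15 in KO2. Its counts in the overexpression table were 95.6, 158 and 120.0 in ANKRD10-2 and 125, 149 and 138 in Vector, groups that overlapped (log2 fold change -0.15 ± 0.18, adjusted p = 0.605). The sulfotransferase CHST9 gave -4.49 ± 0.28, -3.91 ± 0.33 and -0.50 ± 0.26, and the N-acetylgalactosaminyltransferase GALNT13 -2.72 ± 0.30, -3.50 ± 0.32 and -0.20 ± 0.12. The CHST9 value with ANKRD10-2 was -0.92 without ANKRD10-2 replicate 3 and then passed the threshold (adjusted p = 0.0254). The matrix protein SPARC gave -2.82 ± 0.35 in KO2, with counts of 13.5, 11.5 and 0 in KO1 and 133, 145 and 142 in WT1, and 0.01 ± 0.16 with ANKRD10-2. The receptor GPR37 had 3.37, 0 and 0 in KO1 and 143, 170.2 and 124 in WT1 and 62.3, 59.0 and 48.4 in ANKRD10-2 and 70.1, 61.9 and 50.8 in Vector. The chemokine CXCL6 had 2.53, 0 and 0 in KO1 and 303, 367 and 374 in WT1 and 0, 0 and 6.6 in KO2 and 457, 502 and 422 in WT2, and 10.4, 20.5 and 23.2 in ANKRD10-2 and 30.9, 24.3 and 30.3 in Vector (adjusted p = 0.212).

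Knockdown of ANKRD10-2 gave a readout that the choice of genes had not used, and it moved the shared genes the other way more often than all genes tested. Of 481 shared higher genes, siANKRD10-2 lowered 212, or 44.1%, and raised 12.9%, where it lowered 21.8% and raised 19.3% of the 13289 genes tested. Of 957 knockout-only higher genes it lowered 34.3% of those tested. Of the shared lower genes it raised 39.7%, against 22.8% of the knockout-only lower genes. Knockout-only genes that were higher thus also went down above the background, and those that were lower stayed nearer to it. Of the 115 opposed genes higher in the knockouts, siANKRD10-2 lowered 40.9% and raised 21.7%, although ANKRD10-2 had lowered them too. That share was near the 44.1% of the shared higher genes, so the fall was not particular to shared genes. Of the opposed genes lower in the knockouts, it raised 30.4% and lowered 21.5%. Genes raised in KO1 alone were lowered by siANKRD10-2 in 32.3%. Of the genes that ANKRD10-2 raised outside the shared set, siANKRD10-2 lowered 33.6% and raised 18.6%. Of those that ANKRD10-2 lowered outside the shared set, siANKRD10-2 raised 31.1% and lowered 20.1%. Reversal was thus also seen, at a smaller share, among genes that ANKRD10-2 moved outside the shared set.

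The median log2 fold change after siANKRD10-2 was -0.122 over shared higher genes, -0.092 over knockout-only higher genes, 0.131 over shared lower genes and 0.034 over knockout-only lower genes. By library, shared higher genes had medians of -0.124, -0.122 and -0.133 in siANKRD10-2 and -0.025, -0.003 and 0.034 in siNC. Shared lower genes had 0.130, 0.113 and 0.141 in siANKRD10-2 and 0.021, 0.010 and -0.035 in siNC. The groups did not overlap in either set. Over all genes tested the median was -0.010, and 51.0% of genes had groups that did not overlap.

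Single genes followed or left this pattern. MYC after siANKRD10-2 stood at 1009.9, 979 and 906 in siANKRD10-2 and 1459, 1409 and 1513 in siNC (log2 fold change -0.60 ± 0.06, adjusted p = 3.74e-08), and C1QBP at 2173, 2167 and 2112 in siANKRD10-2 and 2982, 2985 and 3416 in siNC (log2 fold change -0.54 ± 0.06, adjusted p = 6.23e-08). LGALS1 stood at 90.9, 112 and 82.5 in siANKRD10-2 and 205, 173 and 177 in siNC (log2 fold change -0.96 ± 0.15, adjusted p = 1.35e-05). These 3 genes rose with ANKRD10-2 and in both knockouts and fell with its knockdown, as did SYT14 (log2 fold change -2.02 ± 0.28, adjusted p = 2.5e-06) and VIM (log2 fold change -0.28 ± 0.10, adjusted p = 0.0272). The VIM call after siANKRD10-2 was lost without siANKRD10-2 replicate 3 (adjusted p = 0.127), siNC replicate 2 (adjusted p = 0.097) or siNC replicate 3 (adjusted p = 0.0652). FOSL1 gave -0.13 ± 0.07 (adjusted p = 0.161) and ODC1 -0.08 ± 0.06 (adjusted p = 0.284), neither called, and TRIML2 rose again (log2 fold change 0.54 ± 0.11, adjusted p = 0.000387). Chaperones were mixed: HSPD1 and TCP1 fell (-0.41 ± 0.06 and -0.48 ± 0.06), and HSP90AB1 gave 0.15 ± 0.05 (adjusted p = 0.0252), a call lost without siANKRD10-2 replicates 1 or 2 or siNC replicates 1 or 2 (adjusted p = 0.0699 to 0.125).

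Among shared lower genes, UBD after siANKRD10-2 stood at 800.3, 766 and 745 in siANKRD10-2 and 175, 184 and 194 in siNC (log2 fold change 2.06 ± 0.09, adjusted p = 3.11e-15) and MMP13 at 1932, 1927 and 2005 in siANKRD10-2 and 1000.0, 904 and 1076 in siNC (log2 fold change 0.98 ± 0.06, adjusted p = 8.37e-12), a 4.17-fold and a 1.97-fold gain. OAS1 gave 0.47 ± 0.13 and PTPRZ1 0.32 ± 0.08, both called higher. SAMD9 (-1.42 ± 0.06), SAMD9L (-1.15 ± 0.07), MPPED2 (-0.26 ± 0.06) and KRT13 (-0.84 ± 0.09) fell instead, the same way as in the knockouts. Among knockout-only genes, HK2 fell and stood at 523, 516 and 475 in siANKRD10-2 and 1154, 1083 and 1090.5 in siNC (log2 fold change -1.14 ± 0.07, adjusted p = 3.58e-12), whereas with ANKRD10-2 it was not called. HS6ST2 (2.83-fold, adjusted p = 2.16e-05), GALNT13 (1.63 ± 0.34) and ASPHD1 (1.03 ± 0.07) rose after siANKRD10-2. Of the opposed genes, CCL20 fell (-0.74 ± 0.14), HEPHL1, ID4 and RCSD1 rose (1.25 ± 0.05, 0.90 ± 0.21 and 0.51 ± 0.08), and CSF3 gave 0.10 ± 0.10 (adjusted p = 0.491).

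By list, beside the 21.8% of all genes that it lowered and the 19.3% that it raised, siANKRD10-2 lowered 80 of 195 genes of the first MYC list and raised 29, and lowered 20 of 58 of the second and raised 12. It lowered 17 of 30 chaperonin and heat shock genes and raised 3, and lowered 18 of 32 proteasome subunits and raised 4. Of 99 nucleolar genes it lowered 38 and raised 20. Of 38 glycolysis and hypoxia genes it lowered 23 and raised 3, with HK2 and PGK1 (-0.92 ± 0.05) among those lowered. Other lists did not reverse. Of 23 endoplasmic reticulum genes it lowered 5 and raised 5, and of 49 mesenchymal genes it lowered 13 and raised 16. Of 51 interferon genes it lowered 18 and raised 8. Of 41 NF-kB target and chemokine genes it lowered 19 and raised 9. ANKRD10-2 had also lowered more genes than it raised in the interferon and NF-kB lists. Of the endoplasmic reticulum genes ANKRD10-2 had raised 16 and lowered 0, and of the mesenchymal genes it had raised 15 and lowered 8.

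The other isoform was read beside these values. ANKRD10-1 shares the Vector libraries with ANKRD10-2, and siANKRD10-1 shares siNC with siANKRD10-2. ANKRD10-1 raised 13.1% of program genes higher in the knockouts, where it raised 4.58% of all genes tested, and lowered 6.96% of those lower, where it lowered 3.53%. siANKRD10-1 raised 11.5% of the genes higher, beside 5.77% of all, and lowered 12.3% of those lower, beside 7.11%. In ANKRD10-2 against ANKRD10-1, which leaves out Vector, ANKRD10-2 was higher for 11.2% of the program genes higher (5.18% of all) and lower for 7.19% of those lower (3.85% of all). Gain of either isoform thus moved program genes in the knockouts' direction above its own background. Knockdown of ANKRD10-1 did so as well, so gain and loss of that isoform gave the same direction. siANKRD10-2 instead lowered 37.9% and raised 14.7% of the program genes higher in the knockouts.

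Expression level moved with these counts. In the top quartile of counts in the overexpression table, ANKRD10-2 raised 46.6% of program genes higher in the knockouts against 28.9% of all genes there. In the bottom quartile it raised 4.29% against 2.23%. The shared higher genes had a median of 2630 normalized counts, the knockout-only higher genes 976 and all genes 663. The siANKRD10-2 calls moved with level too. In the top quartile siANKRD10-2 raised 42.3% of shared lower genes, 36.3% of knockout-only lower genes and 31.3% of all genes, and in the second quartile from the bottom 34.9%, 15.5% and 15.1%. In the top quartile it lowered 42.8% of shared higher genes, 34.3% of knockout-only higher genes and 27.7% of all genes. Genes with more counts have smaller errors, and the part of level in the split between shared and knockout-only genes was not tested.

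Position on chromosomes moved with the lower genes. Median log2 fold changes over whole chromosomes were -0.37 on chromosome 19 and -0.32 on chromosome 21 in KO1, and -0.39 on chromosome 9, -0.17 on chromosome 13 and 0.21 on chromosome 21 in KO2, where ANKRD10-2 gave 0.01 or 0.02 on chromosomes 9, 13 and 19 and -0.06 on chromosome 21. These 4 chromosomes held 13.8% of genes tested, 18.4% of program genes lower and 4.31% of program genes higher. Without them ANKRD10-2 raised 31.3% of the program genes higher and lowered 23.2% of those lower. Of 452 tested ZNF genes, most encoding zinc finger proteins, 33 were shared and lower, 13 of 216 on chromosome 19 and 20 of 236 elsewhere. Over all genes tested, 2.15% were shared and lower. A further 68 ZNF genes were knockout-only and lower, 51 on chromosome 19 and 17 elsewhere. ZNF221 gave -1.13 ± 0.17, -0.83 ± 0.17 and -0.97 ± 0.22, and the transcribed pseudogene ZNF37BP -0.57 ± 0.08, -0.59 ± 0.06 and -0.76 ± 0.05.

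The edge of the sets was as follows, on the log2 scale. Just inside were CPA4 (KO1, 0.175, adjusted p = 0.0486), ME2 (KO2, 0.129, adjusted p = 0.0491) and ABLIM3 (ANKRD10-2, 0.169, adjusted p = 0.05). Just outside were IFITM1 (KO1, -0.952, adjusted p = 0.0507), CDK4 (KO2, 0.138, adjusted p = 0.0506) and EIF4G2 (ANKRD10-2, 0.135, adjusted p = 0.0501). Left out by turns, the 18 libraries kept 224 of the 481 shared higher genes (46.6%) and 88 of the 293 shared lower genes in the set each time. Without Vector replicate 2 there were 328 shared higher genes, and without Vector replicate 1 there were 190 shared lower genes.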

How the data were processed

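The authors deposited raw read counts per gene in 3 tables (knockout, overexpression and siRNA). The sources differ on the steps: the submitters' processing notes name Trimmomatic 0.36, featureCounts (Subread 1.5.1) and GRCh38, and the study's methods name Cutadapt, HISAT2 and StringTie. The labels and the methods name different stranded mRNA kits. The deposited values are whole-number counts. The strand setting of the counting is not given in the sources used here. Ensembl identifiers of the knockout table were matched to the symbols of the other tables through current gene symbols. In all, 33831 genes matched, holding 92.92% of the counts of the overexpression table. Genes listed there under an older symbol were left out, so 4 of 22 tRNA synthetase genes and 0 of 23 histone genes were tested. The alternative with older symbols added names from GENCODE v29 (GRCh38) and RefSeq synonyms. It matched 36698 genes and tested all 22 and all 23. In the overexpression table, 4 rows with repeated date-like names stayed in the library sizes and were not tested.

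Each comparison was fitted with edgeR 4.0.16 (R 4.3.3, quasi-likelihood test, TMM scaling, filterByExpr with a minimum count of 10 and total of 15) on its 6 libraries, with Benjamini-Hochberg adjustment over all genes of the table that passed the filter. Tables and figures were made with Python 3.11.15. The fits were tested on simulated data. Groups follow the labels.

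Named genes were a fixed set and the 7 targets measured by PCR; the 10 shared genes each way, and 5 opposed and 5 knockout-only genes each way, ranked by their smallest log2 fold change with at least 50 normalized counts on average and groups that do not overlap; at most 4 shared and 2 opposed genes of a list; and genes at the threshold. Of these, a selection is given, and some items are not reported here. The members and the gene lists, which were compiled for this work, were chosen with earlier results of these data known. The test of KO1 against KO2 effects (an edgeR interaction term) was chosen after the data were seen. Alternatives were DESeq2 1.42.0, other scaling, no filter, 1 fit over all groups, all 6 control libraries, a replicate block, older symbols, an adjusted p under 0.01, each library left out, and, chosen after seeing the data, leaving out 4 chromosomes.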

Additional observations from a re-analysis of the deposited data

Results flagged for a closer look

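KO1 and KO2 were tested against each other by the difference of their log2 fold changes (KO1 minus KO2, edgeR interaction term, adjusted p under 0.05 over all genes, 3 libraries per group). Of the program genes named here, 28 differed in size between the knockouts, with 1 direction in both, which membership of the program requires. Outside the program, CDH2 was lower in KO1 (-0.94) and higher in KO2 (1.46), a difference of -2.40, and the difference was 0.30 for MAX and 0.49 for PRMT3. For the targeted gene the difference was -0.36 for RBPMS, and for total ANKRD10 it was -0.42, so both were lower in KO1.

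Among genes higher in both knockouts, the gain was larger in KO1 for MYC (0.25), VIM (0.62), C1QBP (0.29), PGK1 (0.63), RSL1D1 (0.34), NME1 (0.23) and the secreted hormone STC2 (0.57). It was also larger in KO1 for CCL20 (0.64), TAP1 (0.56) and LGALS3BP (0.44). The gain was larger in KO2 for RPL22L1 (-0.49), PSMD11 (-0.17) and HEPHL1 (-3.61).

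Among genes lower in both knockouts, the drop was larger in KO2 for METTL7A (0.64), CA8 (2.32), MMP10 (0.59), CYP1B1-AS1 (2.12), LRP2 (4.04) and KRT13 (1.98). The drop was larger in KO1 for MMP13 (-1.19), PTPRZ1 (-0.66), MPPED2 (-0.38), BMP4 (-0.91), HS6ST2 (-2.47), SAMD9 (-0.48) and STAT2 (-0.52).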

How the results depend on the processing

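At an adjusted p under 0.01 the knockout program held 1020 genes higher and 771 lower, of which 220 and 106 were shared and 49 and 23 opposed. The shared genes among those at least 2-fold changed in both knockouts were then 6 higher and 20 lower, the shared share of program genes lower was 13.7%, ANKRD10-2 called 1716 genes, and the siANKRD10-2 medians of the shared genes were -0.161 and 0.21. With each library dropped in turn there were 190 to 307 shared lower genes (190 without Vector replicate 1), 46 to 82 opposed genes lower in the knockouts (46 without ANKRD10-2 replicate 3, 49 without Vector replicate 1, 47 without Vector replicate 2), 8 to 16 shared genes at least 2-fold higher in both knockouts (8 without ANKRD10-2 replicate 1, 9 without Vector replicate 1 and 9 without Vector replicate 2), a shared share of 14.6% to 23.9% of program genes lower (14.6% without Vector replicate 1), and 2216 to 3347 genes called with ANKRD10-2 (2217 without Vector replicate 1 and 2216 without Vector replicate 2). Shared higher genes ranged from 328 to 498. DESeq2 gave 486 shared genes higher and 267 lower, with 447 and 254 in common with the reported sets. The labels give no shared batch and same-numbered libraries did not all correlate above 0.1 (-0.02 to 0.19), so they were not treated as paired, although in KO2 and ANKRD10-2 with their controls each library correlated best with its own number, a hint from the data and not the design. With the replicate block 544 genes were shared and higher and 338 shared and lower, with 469 of the 481 and 276 of the 293 kept. Without chromosomes 9, 13, 19 and 21, 465 and 246 genes were shared. Over the named genes and alternatives, 3358 values kept direction and side of the threshold, 118 lost the call, 7 gained it and 18 changed sign. Those that changed sign lay near 0 and were not called: CDH1 in KO2 (0.00 with RLE size factors, 0.00 with all groups in 1 fit, 0.02 with all 6 control libraries, -0.01 to 0.01 with a library left out), and, over the libraries left out in turn, RBPMS with ANKRD10-2 (-0.04 to 0.16) and after siANKRD10-2 (-0.04 to 0.16), and with ANKRD10-2 GPR37 (-0.23 to 0.01), CSF2 (-0.16 to 0.02), ASPHD1 (-0.08 to 0.04), SPARC (-0.08 to 0.10) and HS6ST2 (-0.34 to 0.01). The cause of these changes was not tested beyond the fewer libraries or stricter threshold of each alternative.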

Other observations

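Of 80 cytosolic ribosomal protein genes tested, ANKRD10-2 raised 65 and lowered 0, with a median log2 fold change of 0.28, and siANKRD10-2 lowered 61 and raised 1, with a median of -0.38. Over all genes tested, ANKRD10-2 raised 13.4% and siANKRD10-2 lowered 21.8%. KO1 raised 42 and lowered 10, with a median of 0.18, whereas KO2 raised 3 and lowered 13, with a median of -0.04. Of the 80, RPL22L1 and RPL26L1 were shared. Their near-identical copies in the genome make single members uncertain.

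Of 26 antioxidant genes known as NRF2 targets, ANKRD10-2 raised 17 and lowered 3, and 5 were shared: PRDX1, MAFG, PGD, ME1 and TXNRD1. Of 25 amino acid genes known as ATF4 targets, ANKRD10-2 raised 14 and lowered 0, and MTHFD2, SLC3A2 and STC2 were shared. Beside both lists, ANKRD10-2 raised 13.4% of all genes tested, and 3.54% were shared and higher. Of 26 clustered protocadherin genes, which encode adhesion proteins, KO1 lowered 10 and raised 1, KO2 lowered 4 and raised 1, and the 4 that both lowered were knockout-only. ANKRD10-2 lowered 16 and raised 0, and siANKRD10-2 lowered 15 and raised 1, beside 11.1% and 21.8% of all genes lowered.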
